A study of Homo sapiens with 6 samples.

Results

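The genes described here carry or restrain the signal of transforming growth factor beta (TGF-beta) and of bone morphogenetic proteins (BMPs): the corepressors SKI and SKIL, the signal transducers SMAD2, SMAD3 and SMAD4, the inhibitory SMAD6 and SMAD7, the receptors TGFBR1 and TGFBR2, and the ligand BMP4. They were chosen by name, and those paired with a feature in the array's annotation were kept, which left 8 of the 10 among 14884 genes tested. TGFBR1 and TGFBR2 were not analysed here. Each of the 8 was read by 1 feature: SKI by transcript cluster 16657993, SKIL by 16947904, BMP4 by 16793129, SMAD2 by 16855093, SMAD3 by 16802251, SMAD4 by 16852354, SMAD6 by 16802232 and SMAD7 by 16855127. RNA came from HCT-8, an established human colon cancer line, on 6 single-colour arrays. There were 3 arrays of cells stably carrying a short hairpin RNA against the pseudokinase gene TRIB3, labelled TRIB3-shRNA, and 3 of cells with a control hairpin, labelled Control-shRNA. All cells had been transfected with plasmid, put under hygromycin after 24 hours and selected for 14 days as uncloned populations, so each group is a mixture of integrations. Whether replicates were separate cultures is not stated, and p-values measure the spread between these arrays, which may be technical.

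Ligands of this family bind paired receptor kinases, which phosphorylate receptor SMADs. SMAD2 and SMAD3 carry the TGF-beta and activin signal, SMAD1, SMAD5 and SMAD9 carry the BMP signal, and SMAD4 joins either kind to enter the nucleus. SKI and SKIL (also called SnoN) bind these complexes on DNA and recruit histone deacetylases that silence target genes. The signal destroys SKI and SKIL proteins through ubiquitin ligases and later induces transcription of SKIL and SMAD7, which close a negative feedback loop. In the colon the pathway restrains epithelial growth, and carcinomas often lose SMAD4 or a receptor. TRIB3 protein has been reported to bind SMAD3 and to promote loss of the SMAD ligase SMURF1.

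The SMAD binding element is a short DNA word, CAGAC, and its palindromic form GTCTAGAC. The stretches upstream of SKIL and SMAD6 are shown because SKIL is a gene of the feedback loop that passed the test, while SMAD6 holds the palindrome and did not pass. Sequences are RefSeq's for build GRCh38.p14, 5′ to 3′ on the gene's strand, and cover the 250 bases before the annotated start. Capitals mark CAGAC or its complement GTCTG, GTCTAGAC, and GGCGCC, a GC-rich word that SMADs also bind.
SKIL, chr3:170357465-170357714, plus strand: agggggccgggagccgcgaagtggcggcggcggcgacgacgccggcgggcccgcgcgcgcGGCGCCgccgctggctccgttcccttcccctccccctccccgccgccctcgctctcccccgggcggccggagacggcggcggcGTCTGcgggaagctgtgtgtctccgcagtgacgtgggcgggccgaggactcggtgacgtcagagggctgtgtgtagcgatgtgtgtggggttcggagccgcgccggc
SMAD6, chr15:66701986-66702235, plus strand: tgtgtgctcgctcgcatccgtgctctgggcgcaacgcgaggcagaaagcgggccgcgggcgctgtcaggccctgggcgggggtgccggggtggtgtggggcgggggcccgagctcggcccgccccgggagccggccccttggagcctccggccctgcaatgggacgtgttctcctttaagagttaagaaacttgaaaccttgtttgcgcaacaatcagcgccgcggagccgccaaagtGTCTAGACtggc
The SKIL stretch held GTCTG from position -107 and GGCGCC from position -190, counted back from the annotated start. The SMAD6 stretch held GTCTAGAC from position -12. Of the 8 genes, 7 had entries (not SKI), with 16 start sites in all. CAGAC on either strand was present at 7 of these 16 start sites and at 38.0% of all 35116 start sites in the table. GGCGCC was present at 6 of 16 and at 16.4% of all. Those 6 stretches were 63.6% to 84.4% G or C, and the share over all start sites was not matched for this. GTCTAGAC was present at 1 of 16 and at 0.182% of all. The 16 start sites belong to 7 genes and the stretches of SMAD2 overlap, so they are not independent. A match describes letters only.

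TRIB3 was read first, because it checks the labels. It was 1.07 higher on the log2 scale in the arrays labelled TRIB3-shRNA (8.43, 8.48 and 8.27) than in the control arrays (7.37, 7.14 and 7.48; limma adjusted p = 0.0041), which goes against a silenced gene. Every direction below therefore follows the labels only. Values are log2 signals made by RMA, the authors' normalization, and a difference is TRIB3-shRNA minus Control-shRNA on that scale. Over all genes, 484 rose and 951 fell at an adjusted p of 0.05 (limma with Benjamini-Hochberg adjustment), and the median difference was 0.04. The split was 659 to 818 after centring each array on its median and 853 to 825 after centring on its 75th percentile, which moved the median difference to 0.14. The calls rest on few arrays: without Control-shRNA replicate 2 there were 199, and without TRIB3-shRNA replicate 3 there were 2696. Of 8 measured markers of colon epithelium 1 rose, CDX1 (0.69, limma adjusted p = 0.0372), 1 fell, TJP1 (-0.77, adjusted p = 0.0422), and 6 were not called, among them EPCAM, which read 10.74 to 11.05 on the 6 arrays. None of the 8 lay below the 25th percentile of every array, while the fibroblast genes DCN and LUM and the leukocyte genes CD14 and LYZ lay below the 25th percentile of every array. THY1, CSF1R and the endothelial genes did not lie below it on all arrays. Of the 9 measured markers of other cell types, 0 passed the limma test (0 at an unadjusted p under 0.05). Over all genes 9.64% were called, and 8 or 9 markers are too few to set against that share.

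SKI and SKIL moved in opposite directions. Of the 8 genes 1 rose, SKI, and 1 fell, SKIL, against 9.64% of all genes called (3.25% higher, 6.39% lower), so 6 did not pass the test. In RNA from whole cultures, a change in fewer cells and a change in RNA per cell cannot be told apart. The groups did not overlap for 6 of the 8, against 32.0% of all genes, and the 8 were chosen with earlier results of these data known. The median difference of the 8 genes was -0.02.

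SKI, the founding corepressor of the family, read 7.90, 7.82 and 7.39 in the TRIB3-shRNA arrays and 6.97, 7.17 and 7.05 in the control arrays. All TRIB3-shRNA arrays lay above all control arrays, and replicate 3 lay nearest to them. SKI rose by 0.64 (SE 0.16, 95% interval 0.28 to 1.01, 1.56-fold, limma adjusted p = 0.0402). The call sits close to the threshold. It was lost when any array other than TRIB3-shRNA replicate 3 was left out: the adjusted p was 0.121 and 0.13 without TRIB3-shRNA replicates 1 and 2, and 0.152, 0.113 and 0.0677 without the control arrays 1, 2 and 3. Without TRIB3-shRNA replicate 3 the rise was 0.80 (limma adjusted p = 0.00873).

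SKIL, whose protein blocks the same SMAD complexes and whose gene is itself a TGF-beta target, read 5.06, 5.11 and 5.37 in the TRIB3-shRNA arrays. The control arrays read 6.23, 6.06 and 5.78. Every TRIB3-shRNA array was below every control array, and the arrays numbered 3 lay closest together. SKIL fell by 0.84 (95% interval -1.20 to -0.49, SE 0.16, 1.79-fold lower, limma adjusted p = 0.0163). The call was lost without TRIB3-shRNA replicate 1 (0.0557) or 2 (0.0664) and without Control-shRNA replicate 1 (0.0798) or 2 (0.0803).

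Of the other measured relatives with a SKI-type domain, DACH1 (0.01), DACH2 (0.19) and SKIDA1 (-0.27) were not called (adjusted p from 0.252 to 0.975).

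**Figure D1:**
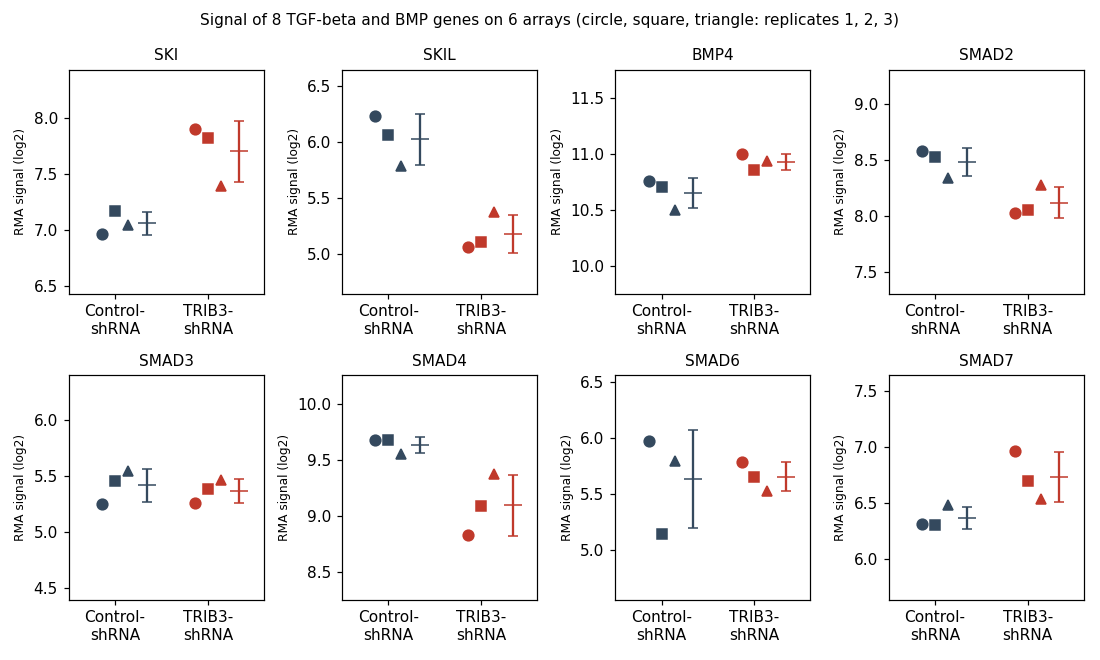
RMA signal (log2) of each of the 8 genes on the 6 arrays, with control arrays in dark blue and TRIB3-shRNA arrays in red. Symbols give the replicate number, bars the mean and SD of 3 arrays, and each panel spans the same number of log2 units. SKI is higher and SKIL lower in all 3 TRIB3-shRNA arrays, while SMAD3 and SMAD6 overlap between groups.

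BMP4, a ligand that maintains epithelial differentiation in the gut, had high signal on all arrays. It read 11.00, 10.85 and 10.94 in the TRIB3-shRNA arrays and 10.76, 10.70 and 10.50 in the control arrays. The groups did not overlap, but the difference of 0.28 did not pass the test (95% interval -0.01 to 0.57, limma adjusted p = 0.193). It was not called under any of its 19 alternative settings, with adjusted p from 0.0777 to 0.416. Among 17 measured ligands of the family 1 rose and 0 fell, with a median difference of 0.11, against 3.25% higher and 6.39% lower over all genes. The ligand that rose was GDF15, a distant stress-induced member (0.76, limma adjusted p = 0.0235). Its call was lost without TRIB3-shRNA replicate 1 (0.0746) or 2 (0.0888) and without Control-shRNA replicate 1 (0.11) or 2 (0.108). Of its 20 nearest measured genes on chromosome 19, 16 were above 0, with a median of 0.31. BMP2, the closest relative of BMP4, differed by 0.30 with overlapping groups (adjusted p = 0.309). Of 16 listed receptors and co-receptors only 4 were measured: ACVRL1, ENG, BAMBI and HJV. Of these 4, 0 passed the limma test (2 at an unadjusted p under 0.05), against 9.64% called over all genes. The other listed receptors were not analysed here. BAMBI, a decoy receptor that both branches induce, read 7.16 to 7.26 against 6.87 to 6.98, a difference of 0.30 (adjusted p = 0.129).

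The transducers of the TGF-beta branch and their common partner did not pass the test. SMAD4, the shared partner, read 8.83, 9.09 and 9.38 in the TRIB3-shRNA arrays and 9.68, 9.68 and 9.56 in the control arrays. The groups did not overlap, the spread was wider in the TRIB3-shRNA arrays (SD 0.27 against 0.07, n = 3 each), and the difference of -0.54 missed the threshold (95% interval -0.90 to -0.18, limma adjusted p = 0.0621). Its adjusted p was 0.0172 without TRIB3-shRNA replicate 3, and it was called under 6 of its 19 alternatives. SMAD2 read 8.03, 8.06 and 8.28 against 8.59, 8.53 and 8.35. These groups did not overlap either, and the difference of -0.37 did not pass the test (95% interval -0.67 to -0.06, limma adjusted p = 0.114). SMAD3, the other TGF-beta transducer and the reported partner of TRIB3, read 5.26, 5.39 and 5.47 against 5.25, 5.46 and 5.55. Its groups overlapped almost fully, with a difference of -0.05 and a 95% interval from -0.35 to 0.26 (limma adjusted p = 0.849). The sign of that difference turned with either centring, with array weights and with the trend on gene span removed.

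The inhibitory SMADs, which block the receptors and mark them for degradation, were not called either. SMAD7 read 6.97, 6.70 and 6.54 in the TRIB3-shRNA arrays and 6.32, 6.31 and 6.48 in the control arrays. The groups were apart by the small gap between both arrays numbered 3. The difference of 0.37 did not pass the test (95% interval 0.03 to 0.70, limma adjusted p = 0.14). SMAD6, which mainly restrains BMP signals and carries the palindrome printed above, read 5.78, 5.65 and 5.52 against 5.97, 5.14 and 5.79. Control-shRNA replicate 2 stood below the other arrays, the groups overlapped, and the difference was 0.02 (95% interval -0.46 to 0.49, limma adjusted p = 0.965). Without Control-shRNA replicate 2 it was -0.23. SKIL and SMAD7 are both feedback genes of the TGF-beta loop, and their differences had opposite signs, of which that of SKIL passed the test.

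The BMP transducers, which were outside the named genes but complete the SMAD family, included the only SMAD that was called. SMAD1 read 5.38, 5.45 and 5.46 in the TRIB3-shRNA arrays and 4.86, 4.27 and 4.19 in the control arrays. The groups did not overlap, the TRIB3-shRNA arrays lay tightly together, and control replicate 1 lay above the other two. SMAD1 rose by 0.99 (SE 0.18, 95% interval 0.58 to 1.4, 1.98-fold, limma adjusted p = 0.0158). In 2 of the 3 control arrays it lay below the array's 25th percentile, so the size of the rise is not settled. The call was lost without replicate 2 of the TRIB3-shRNA arrays (0.06) or of the control arrays (0.0803). SMAD5, its closest relative, read 6.02, 6.51 and 6.89 against 7.36, 7.41 and 6.96. It lay in the other direction, by -0.77, and missed the threshold (95% interval -1.28 to -0.26, limma adjusted p = 0.0617), though it was called under 6 of 19 alternatives. SMAD9, the remaining BMP transducer, differed by -0.12 (adjusted p = 0.64). Over all 8 SMADs 1 rose and 0 fell, against 3.25% higher and 6.39% lower over all genes. The median of the 8 was -0.08 against 0.04 over all genes.

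Partners with which SKI and SKIL build repressor complexes included 1 of 12 that fell and 0 that rose (median -0.07), a share near the 9.64% called over all genes. The member that fell was HIPK2, a nuclear kinase that binds SKI. It read 7.97, 8.09 and 8.28 in the TRIB3-shRNA arrays and 9.35, 9.25 and 9.10 in the control arrays, with a wide gap between groups. HIPK2 fell by 1.12, or 2.18-fold (SE 0.14, limma adjusted p = 0.00349), and kept its call under all 19 alternatives run, with adjusted p up to 0.0272. Its neighbours on chromosome 7 had low values too: the 20 nearest measured protein-coding genes had a median difference of -0.72, and 17 of them were below 0. Such medians ran from -0.26 to 0.21 between the 5th and 95th percentile of 11450 windows. The part of the neighbourhood in the fall of HIPK2 was not tested. SIN3A, the scaffold of a deacetylase complex, differed by -0.43 (adjusted p = 0.0702), and HDAC1, a deacetylase in it, by 0.20 (adjusted p = 0.285). TGIF1, another SMAD corepressor, differed by -0.01 (adjusted p = 0.964), with a sign that turned under quantile normalization and either centring.

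Genes whose products add or remove ubiquitin on SMADs, receptors or SKI proteins, or steer that step, were read next. Of 15 measured genes 3 fell, 1 rose and 11 were not called, against 6.39% lower and 3.25% higher over all genes, where falls also outnumbered rises. The median was -0.22 against 0.04 over all genes. WWP1, a ubiquitin ligase that works with SMAD7 on the receptor, read 7.19, 7.57 and 8.13 in the TRIB3-shRNA arrays and 9.22, 9.26 and 8.78 in the control arrays. It fell by 1.46, or 2.75-fold (SE 0.24, limma adjusted p = 0.0105). TRIM33, a ligase of SMAD4, read 7.45, 8.09 and 8.34 against 9.29, 9.34 and 8.88 and fell by 1.21 (adjusted p = 0.0173). USP15, which removes ubiquitin from receptor SMADs, read 5.68, 6.13 and 6.51 against 7.29, 7.33 and 6.82 and fell by 1.04 (adjusted p = 0.0259). For these 3 genes TRIB3-shRNA replicate 3 was the highest of its group and Control-shRNA replicate 3 the lowest of its own, with no overlap. AXIN1, a scaffold that brings SMAD7 to its ligase, read 8.70, 8.56 and 8.26 against 7.89, 7.74 and 7.96 and rose by 0.64 (adjusted p = 0.0327).

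These calls depended on single arrays. Without Control-shRNA replicate 1 or 2, 0 of the 15 turnover genes were called by limma (5 or 6 at an unadjusted p under 0.05). Leaving out TRIB3-shRNA replicate 2 or 1 left 1 or 2 calls. Calls over all 14884 genes dropped too, from 1435 to 261 or 199 without Control-shRNA replicate 1 or 2. They numbered 372 or 507 without TRIB3-shRNA replicate 2 or 1. The share of all genes at an unadjusted p under 0.05 was not counted for these settings. The turnover genes are long, with a median span on the genome of 109.8 kb against 20.7 kb over all genes. With each array's trend on span removed, the counts were again 3 that fell and 1 that rose. The falls were then smaller, at -1.32 for WWP1, -1.07 for TRIM33 and -0.9 for USP15, and the rise of AXIN1 was 0.76. The part of gene span in these differences was not tested. RNF111 (Arkadia), the ligase that destroys SKI and SKIL proteins, read 6.85, 6.85 and 7.14 against 7.55, 7.32 and 7.31. Its groups did not overlap, and the difference of -0.45 did not pass the test (95% interval -0.77 to -0.13, limma adjusted p = 0.0782). RNF111 was called under 4 of 19 alternatives. SMURF1, whose protein TRIB3 has been reported to lower, differed in RNA by -0.27 (95% interval -0.54 to -0.01, limma adjusted p = 0.166). It lies on chromosome 7 too, and 18 of its 20 nearest measured genes were below 0, with a median of -0.53. SMURF2, a ligase of SKIL and receptor SMADs, differed by -0.22 with overlapping groups (adjusted p = 0.466). Among its alternatives it was called only without both arrays numbered 3 (limma adjusted p = 0.0337).

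Among 18 secreted antagonists and latency proteins 2 rose, 2 fell and 14 were not called (median 0.01), against 3.25% higher and 6.39% lower over all genes. FURIN, the protease that matures TGF-beta, rose by 0.67 (adjusted p = 0.0335), and FSTL3, which binds activin, rose by 0.65 (adjusted p = 0.0498). FSTL3 lost its call under 9 of 19 alternatives, and all of its 20 nearest measured genes on chromosome 19 were above 0 (median 0.26). TWSG1, a BMP-binding protein, fell by 0.98 (adjusted p = 0.0375), and THBS1, which activates latent TGF-beta, fell by 0.58 (adjusted p = 0.0267). FURIN, TWSG1 and THBS1 each lost their calls without replicate 1 or 2 of either group, with adjusted p up to 0.143, 0.138 and 0.121, and FSTL3 also without Control-shRNA replicate 3 (0.0534, up to 0.184).

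Genes that TGF-beta is known to induce included 4 of 18 that fell and 0 that rose, against 6.39% lower and 3.25% higher over all genes. Of the 18, 11 were above 0, and the median was 0.07 against 0.04 over all genes. These counts use each gene's brightest feature. LTBP2 (0.13) and CCN2 (-0.36) each had a dimmer feature of opposite sign (-0.71 and 0.28), and neither dimmer feature was called. The 4 that fell were SKIL, THBS1, the matrix gene TNC (-1.12, limma adjusted p = 0.00295) and the transcription factor gene SNAI2 (-0.59, adjusted p = 0.0335). TNC kept its call under all 18 alternatives run for it, while SNAI2 lost its own without any single array other than TRIB3-shRNA replicate 3 (adjusted p up to 0.115). These members were known from earlier results of these data. With quantile normalization or median centring 4 fell and 1 rose, and with centring on the 75th percentile 3 fell and 1 rose. Of 13 BMP-induced genes 0 passed the limma test (3 at an unadjusted p under 0.05), against 9.64% called over all genes. The share of all genes at an unadjusted p under 0.05 was not counted. Of the 13, 11 were above 0, against 54.8% of all genes, and the median was 0.14 against 0.04. The BMP-induced ID genes were not analysed here. The lists share members, so their counts do not add up.

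**Figure D2:**
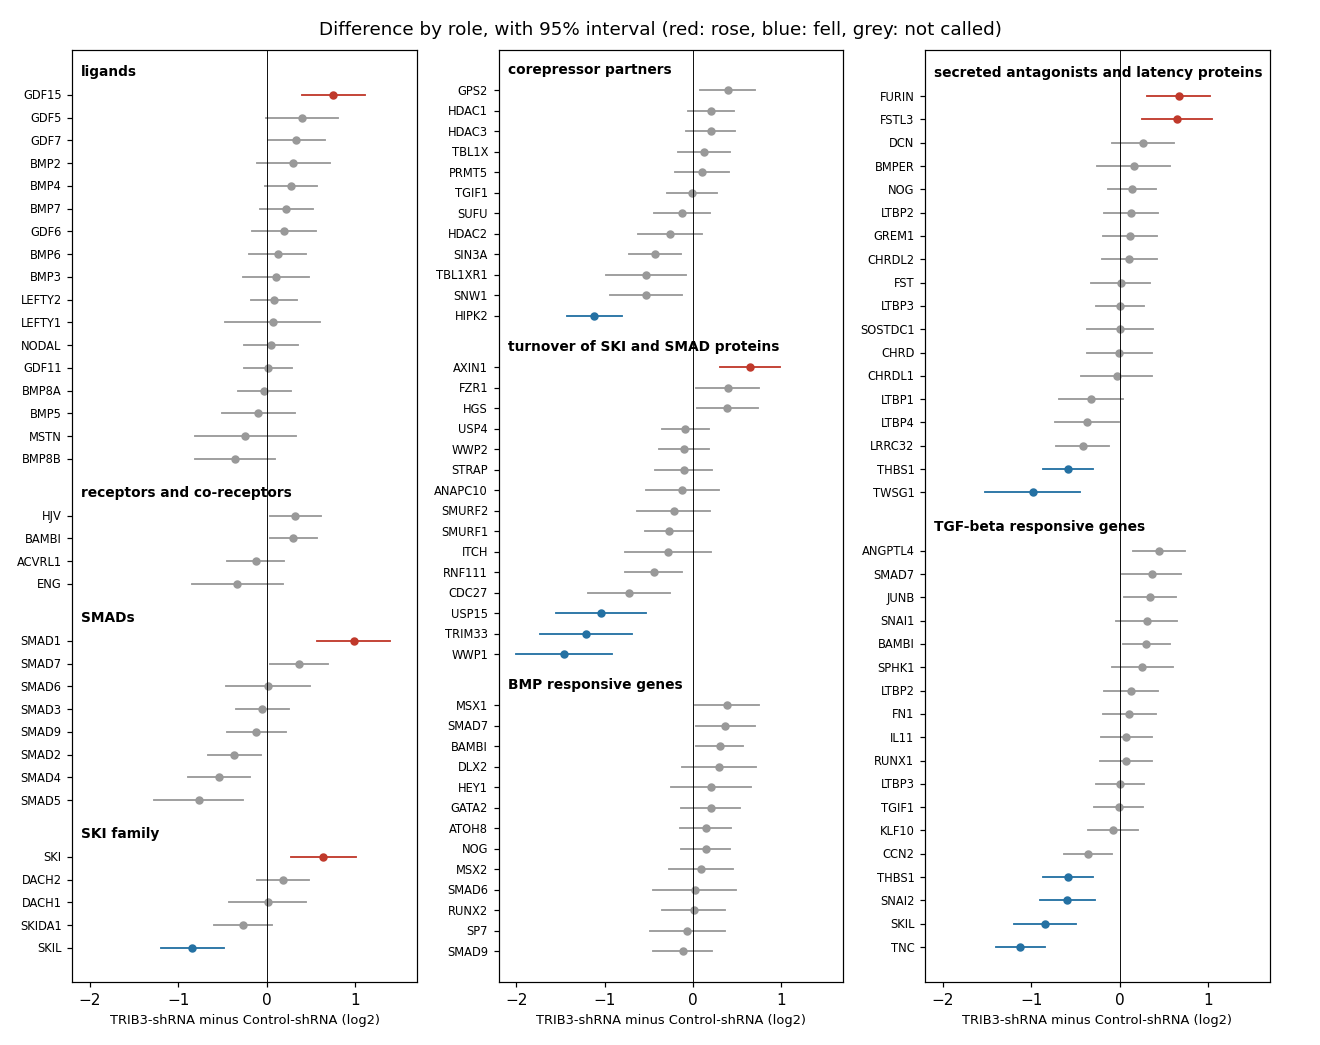
Difference between groups (TRIB3-shRNA minus Control-shRNA, log2) of every measured gene of the 9 lists, ordered within each role, with limma's 95% interval from 3 arrays a group. Red genes rose, blue genes fell and grey genes did not pass an adjusted p of 0.05, and SKI and SKIL stand at opposite ends of their family.

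The genes whose signal ran most like that of SKI over the 6 arrays were SCO2, a mitochondrial copper chaperone gene (Pearson r = 0.989), the homeobox gene IRX5 (0.988) and the ubiquitin ligase gene RNF126 (0.987). Those most like SKIL were PRTFDC1 (0.999), the kinase gene TTBK2 (0.998) and the spindle gene SPAG5 (0.998). The points are 6 arrays in 2 groups, so genes that differ between groups tend to correlate with each other. Of the genes compared, 126 had an r above 0.95 with SKI and 663 with SKIL. IRX5 (0.52) and RNF126 (0.74) rose, with adjusted p of 0.0402 and 0.028, while SCO2 differed by 0.24 and did not pass the test (limma adjusted p = 0.24). PRTFDC1, TTBK2 and SPAG5 fell by 0.91, 0.78 and 0.60 on the log2 scale. The calls of these 5 genes were lost without Control-shRNA replicate 1 or 2 or TRIB3-shRNA replicate 2, with adjusted p up to 0.153. Those of IRX5, RNF126, TTBK2 and SPAG5 were lost without TRIB3-shRNA replicate 1 too, and that of IRX5 without Control-shRNA replicate 3. TRIB3-shRNA replicate 3 was the array of its group nearest to the control mean for both SKI and SKIL, as for 70.9% of all 1435 called genes. For SMAD1 and SNAI2 the nearest array was TRIB3-shRNA replicate 1, and for TNC it was replicate 2.

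**Figure D3:**
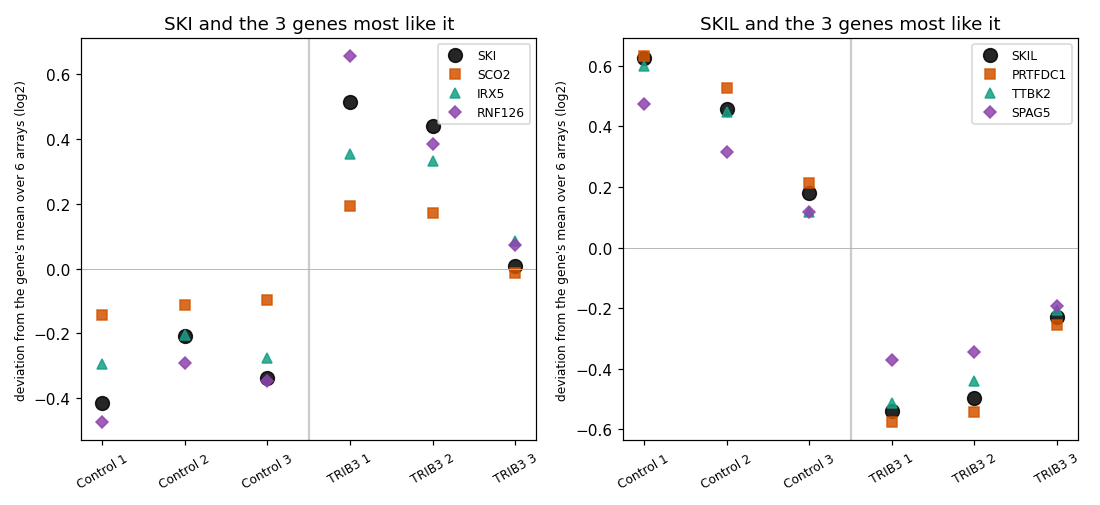
Deviation of each gene from its own mean over the 6 arrays (log2), for SKI and SKIL (black circles) and the 3 genes most like each. TRIB3-shRNA replicate 3 lies nearest to the control arrays in both panels.

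The position of the 8 genes was read against their chromosome neighbours. The 20 measured protein-coding genes nearest to SKI on chromosome 1 had a median difference of 0.14, with 16 above 0, and those nearest to SKIL on chromosome 3 had a median of 0.01, with 10 above and 10 below 0. SMAD2, SMAD4 and SMAD7 all lie on chromosome 18, where the medians of their neighbours were 0.01, -0.16 and -0.03. The neighbours of BMP4 on chromosome 14 had a median of -0.26, opposite in sign to BMP4 itself. SKI spans 81.9 kb and SKIL 39.1 kb. With the trend on span removed the rise of SKI was 0.77 (limma adjusted p = 0.0309) and the fall of SKIL was -0.78 (adjusted p = 0.016).

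**Figure D4:**
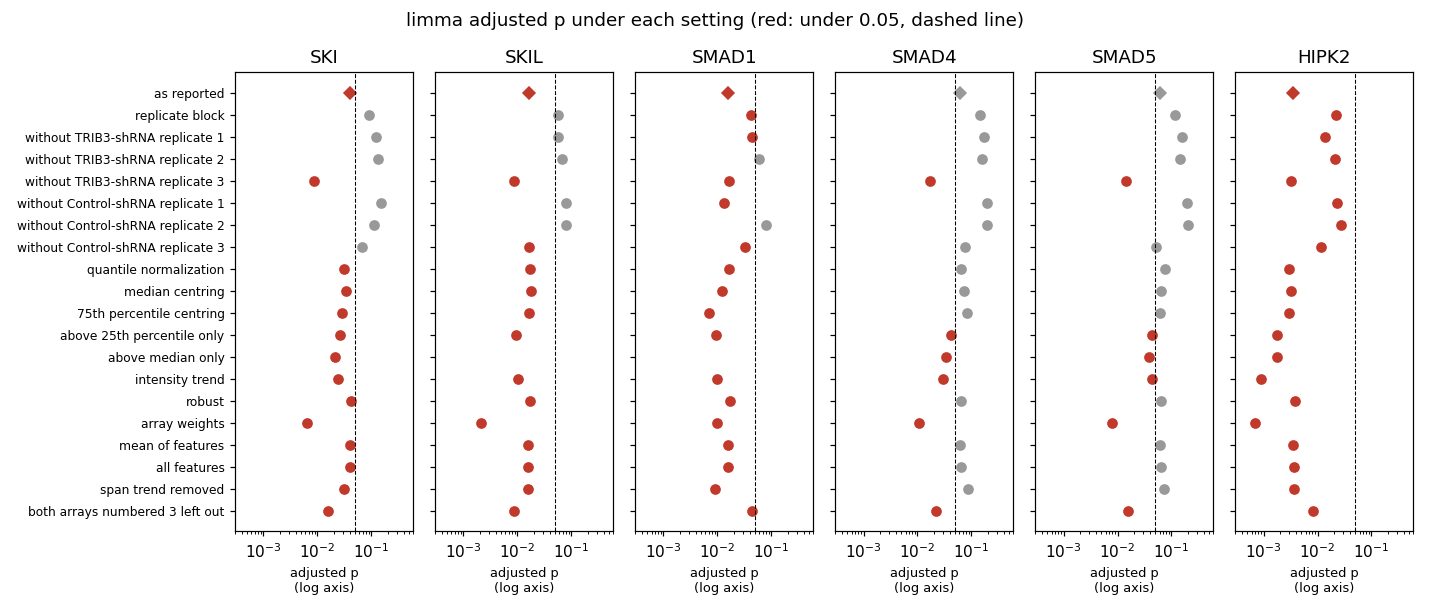
limma adjusted p (log axis) of 6 genes as reported (diamond) and under each alternative setting (circles), red where under 0.05 (dashed line). HIPK2 stays under 0.05 in every row, SKI and SKIL cross it mainly when single arrays are left out, and SMAD4 and SMAD5 lie on either side. Settings whose filter removed a gene have no point.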

How the data were processed

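RNA was isolated with Trizol and 5.5 µg of cDNA carried the biotin label, per the labels' protocols. The deposited values are log2 signals that the authors made with RMA (background correction, quantile normalization between arrays, probe summary) with Expression Console 1.4.1 of Affymetrix, as the submitters' processing notes list. Their range shows the log2 scale. The build of the array's annotation is not given in the sources here. Of 53617 features, 16098 had 1 gene symbol, 0 several and 37519 none. All 16098 symbols matched RefSeq's gene table (GRCh38.p14), which also gave spans, gene order and, with its promoter table, sequences. A gene's brightest feature was kept, which left 14884 genes. Over these genes array medians ran from 5.62 to 5.70. The 75th percentiles were 7.05, 7.08 and 7.15 in the TRIB3-shRNA arrays and 7.24, 7.20 and 7.15 in the control arrays. SDs were 1.90, 1.91 and 1.94 against 2.00, 1.98 and 1.95. The part of this difference in spread in the calls was not tested. The number of arrays limits the precision.

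The comparison used limma 3.58.1 (R 4.3.3; lmFit and eBayes with group as its single term, two-sided) over all genes, with calls at a Benjamini-Hochberg adjusted p of 0.05. Intervals are 95%. The test was run on simulated data of this comparison over 14884 genes, with 200 changed and independent noise. It recovered 0% of changes of 0.5, 66% of changes of 1 and 96.5% of changes of 2 on the log2 scale. False calls numbered 0, 5 and 8. In the data 1435 genes were called, and recovery depends on how many genes change, so these shares need not hold there. Other steps used Python 3.11.15 and numpy 2.4.6.

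The genes and lists were chosen with earlier results of these data known. Named were TRIB3, the chosen genes, up to 4 called members of each list by smallest adjusted p, 17 fixed names of which 8 had a feature, and for each called gene among the chosen the 3 of highest Pearson r among genes above the median signal. DACH1, DACH2, SKIDA1, SIN3A, HDAC1, SMAD9 and the markers were named outside this rule. Alternatives were the replicate number as a block, each array left out, quantile normalization, 2 centrings, 2 filters on signal, array weights, robust fitting, an intensity trend, all features, the mean of features and the span trend removed (lowess, span 0.3). Leaving out both arrays numbered 3 was chosen after seeing the data.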

Additional observations from a re-analysis of the deposited data

How the results depend on the processing

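The directions of SKI, SKIL, SMAD1, SMAD2, SMAD4, SMAD5, SMAD7 and BMP4 held under every alternative run, and the cause of each change below was not tested. Correlations of deviations between same-numbered arrays were -0.196, -0.092 and -0.43. Deviations from a mean of 3 arrays depend on each other, so these values cannot decide whether the numbers pair the arrays. With the replicate block 402 genes, 0 of the 8 named genes and 5 of the 90 other list genes were called, in place of 1435, 2 and 13 (SKI adjusted p = 0.0907, SKIL 0.0575). GDF15, USP15, AXIN1, THBS1, FURIN, TWSG1, FSTL3, SNAI2, IRX5, RNF126, TTBK2 and SPAG5 were not called with the block either. IRX5 was not called with the span trend removed (0.0641). Array weights gave 4099, 5 and 31 calls, and leaving out both arrays numbered 3 gave 3392, 4 and 27. SMAD2 was called with array weights (0.0209) and without both arrays numbered 3 (0.032), and SMAD7 with array weights (0.0395). SMAD4 was called above the 25th percentile of signal (0.0414), above the median (0.0337), with an intensity trend (0.0303), with array weights (0.0107) and without both arrays numbered 3 (0.022). Leaving out 1 array gave 199 to 2696 genes, 0 to 3 named genes and 2 to 18 list genes. The adjusted p then ran from 0.00873 to 0.152 for SKI, 0.0088 to 0.0803 for SKIL, 0.0172 to 0.196 for SMAD4, 0.685 to 0.977 for SMAD3, 0.455 to 0.973 for SMAD6 and 0.841 to 0.988 for TGIF1. The sign of SMAD3 turned with median centring (0.974), 75th percentile centring (0.8), array weights (0.991) and the span trend removed (0.672), and also without TRIB3-shRNA replicate 1 or Control-shRNA replicate 3. That of SMAD6 turned without TRIB3-shRNA replicate 1 or Control-shRNA replicate 2. The sign of TGIF1 turned with quantile normalization (0.729), median centring (0.834), 75th percentile centring (0.638) and the span trend removed (0.712), and also without TRIB3-shRNA replicate 2 or Control-shRNA replicate 1 or 3. SKIL, SMAD1, SMAD3, SMAD6, BMP2, TNC and SNAI2 have no value above the median filter. Signal over background was not analysed here.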
